A study of Mus musculus with 12 samples.

Results

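The genes described here are 35 neuronal activity-induced genes of mouse brain, most of them immediate early genes, among 43629 Ensembl gene IDs counted in 12 libraries. They were chosen by name from a list of such genes and found by the symbols of their IDs. Their measured values were not part of the rule, though earlier results of these data were known when they were chosen. All 35 were present and passed the filter on low counts. Immediate early genes are switched on when calcium entry and growth factor signals reach factors already bound at their promoters, among them CREB and SRF, so that no protein needs to be made beforehand. Their RNAs appear and decay quickly. In forebrain they mark neurons that were recently active, and their products are transcription factors, brakes on kinase signalling, and proteins that act at the synapse.

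Newborn mice had received, into the cerebral ventricles, rAAV (recombinant adeno-associated virus, used to carry genes into cells) with a collagen domain construct, or PBS, and brain was collected at 3 months of age. The groups were collagen domain females, collagen domain males, females given PBS and males given PBS, with 3 libraries each of poly(A) RNA from pulverised frozen forebrain, and the comparison asks how brain expression differs with the construct. No group received rAAV without the construct, so vector and construct cannot be told apart, and the labels give neither the strain nor the promoter that drives the construct. The labels number the libraries without saying that each came from its own mouse, so every p-value measures only the spread between these libraries, which may be technical.

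Some libraries went against their labels. C1qtnf3, whose collagen domain the series title names, had 23 reads in collagen domain female 1 and 8 in collagen domain female 3, against 2612 to 4966 in the other collagen domain libraries. It had 1071 reads in PBS female 2 and 2675 in PBS male 1, against 12 to 28 in the other PBS libraries. The higher of Xist and Ddx3y went against the sex label in 4 libraries, namely female 1 and male 3 of the collagen domain libraries and female 2 and male 1 of the PBS libraries, so that 5 libraries went against a label of either kind. The 15 measured genes of a list of 16 cerebellum and hindbrain markers summed to 433 to 892 CPM (reads scaled to a common library size) in 5 libraries, namely collagen domain female 2, collagen domain male 2, and PBS female 2, female 3 and male 3, and to 71.9 to 100 CPM in the other 7. Gabra6, Hoxb3, Hoxb5, Hoxc4 and Crtam were each at 0 in at least 1 of these 7, while the 8 forebrain markers were read in all 12 libraries. Libraries held 39272127 to 52323985 reads. All libraries were used as labelled, and results that rest on the doubtful ones are given with and without them.

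The promoters of 6 members are shown because CREB and related factors bind the TGACG core of the cyclic AMP response element. These 6 include Fos, 4 members whose levels rose and fell with those of Fos over the libraries, and Jun, which was among the steadiest. They were picked as examples. Each is the 250 bases before the gene's start in RefSeq annotation of GRCm38.p6, written 5' to 3' along the gene, with TGACG and its reverse complement CGTCA in capitals.

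Fos, chr12:85473640-85473889, plus strand: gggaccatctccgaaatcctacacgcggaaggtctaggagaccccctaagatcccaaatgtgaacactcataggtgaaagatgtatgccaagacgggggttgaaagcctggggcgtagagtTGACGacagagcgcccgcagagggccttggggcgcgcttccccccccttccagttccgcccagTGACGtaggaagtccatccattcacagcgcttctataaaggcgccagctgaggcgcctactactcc

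Junb, chr8:84978749-84978998, minus strand: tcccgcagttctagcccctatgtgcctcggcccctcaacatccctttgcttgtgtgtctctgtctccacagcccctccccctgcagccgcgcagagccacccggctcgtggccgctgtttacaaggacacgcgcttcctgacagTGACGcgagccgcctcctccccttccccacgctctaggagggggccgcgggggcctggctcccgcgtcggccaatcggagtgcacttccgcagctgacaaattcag

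Npas4, chr19:4989972-4990221, minus strand: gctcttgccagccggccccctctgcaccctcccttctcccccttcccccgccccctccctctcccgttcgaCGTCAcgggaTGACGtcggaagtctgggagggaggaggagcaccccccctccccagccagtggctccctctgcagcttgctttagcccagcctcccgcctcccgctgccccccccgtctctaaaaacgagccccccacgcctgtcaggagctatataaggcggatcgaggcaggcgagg

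Btg2, chr1:134079156-134079405, minus strand: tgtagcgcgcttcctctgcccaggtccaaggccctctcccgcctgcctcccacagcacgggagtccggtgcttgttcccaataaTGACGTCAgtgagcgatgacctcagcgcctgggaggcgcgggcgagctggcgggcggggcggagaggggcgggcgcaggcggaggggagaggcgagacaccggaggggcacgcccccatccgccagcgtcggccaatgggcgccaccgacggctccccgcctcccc

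Dusp1, chr17:26508473-26508722, minus strand: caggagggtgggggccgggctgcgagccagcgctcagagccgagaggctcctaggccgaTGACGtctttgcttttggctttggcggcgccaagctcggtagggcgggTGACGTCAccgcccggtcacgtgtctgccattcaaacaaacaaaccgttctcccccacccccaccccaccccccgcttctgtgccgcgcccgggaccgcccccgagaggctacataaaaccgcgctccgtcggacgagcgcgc

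Jun, chr4:95052223-95052472, minus strand: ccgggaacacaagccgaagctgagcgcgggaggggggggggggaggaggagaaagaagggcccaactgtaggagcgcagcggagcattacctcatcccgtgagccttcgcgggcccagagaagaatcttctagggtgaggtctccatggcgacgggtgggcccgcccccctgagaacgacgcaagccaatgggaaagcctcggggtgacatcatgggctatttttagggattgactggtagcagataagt

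RefSeq promoter windows were found for 27 of the 35 members, and Arc and Egr1 were among the 8 without one. TGACG, on either strand, lay in a window of 19 of these 27 (70.4%), against 19.8% of 27025 genes with a window. In Fos it began 129 and 66 bases before the start, in Junb 106 bases before it, and the window of Jun held none. It lay in 9 of the 11 members with a window and a Pearson r with Fos of 0.7 or more, and in 9 of the other 15. Dusp6 and Gadd45b, with a high r, had none, while Klf4, Maff and Dusp5, with a low or negative r, had it. The full palindrome TGACGTCA, which overlaps TGACG on both strands, was found in 3 of 27 (11.1%, against 1.77% of all genes), namely Btg2, Dusp1 and Maff. The zinc finger motif GCGNGGGCG, bound by EGR proteins, lay in 8 of 27 (29.6%, against 5.33%), and the CArG box, bound by SRF, in 2 of 27 (7.41%, against 1.62%), namely Egr2 and Dusp5. TATAAA on the gene's strand lay in 5 of 27 (18.5%, against 8.94%), namely Fos, Ccn1, Gadd45b, Gadd45g and Inhba. A match describes these letters in these windows and does not show that a factor was bound. Sites outside the windows were not searched, so a gene without a match may still have one farther out.

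The members differed widely in level. Per kilobase of annotated exon, the median over the 12 libraries was 31.4 RPKM (CPM divided by exon length in kilobases) for Arc, 30.9 RPKM for Vgf and 29.0 RPKM for Egr1, the highest of the 35. At the low end stood Maff at 0.428 RPKM, Inhba at 0.474 RPKM and Atf3 at 0.52 RPKM. Read numbers followed, with 1980 to 10433 reads per library for Arc and 32 to 64 for Maff, so the lowest members were measured least precisely.

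They also varied more between single libraries than most genes did. The SD of log2 CPM over the 12 libraries had a median of 0.37 over the members, against 0.19 over all 19145 genes tested, and was above that all-gene median for 32 of 35. The highest library was at least 2 times the lowest for 21 of 35 members (60%), against 28.3% of all genes. Egr2 had the widest range, 1.14 to 14.4 CPM (12.6-fold), then Npas4 (8.72-fold), Fos (6.93-fold), Nr4a1 (5.52-fold), Ccn1 (5.46-fold), Arc (5.27-fold) and Btg2 (4.78-fold). Jun, at 31.7 to 44.5 CPM (1.41-fold), Gadd45b (1.48-fold), Csrnp1 (1.49-fold) and Bdnf (1.51-fold) had the narrowest.

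The same few libraries held the extremes, as the map of the members over the libraries shows. Collagen domain female 3 was the highest library for 24 of 35 members, and its mean rank over them was 2.0, where 1 is the highest of 12. PBS female 1 was the highest for 5, namely Nr4a2, Nr4a3, Dusp6, Bdnf and Per1. The lowest library was collagen domain female 2 for 11 members, PBS male 3 for 10 and collagen domain male 2 for 6, all 3 of them libraries with high cerebellum and hindbrain genes. For these tallies the share over all genes was not counted, so they are not shown to be particular to the members. Collagen domain female 3 had 42725603 reads, 8.37% of them mitochondrial, both inside the range of the other libraries.

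**Figure D1:**
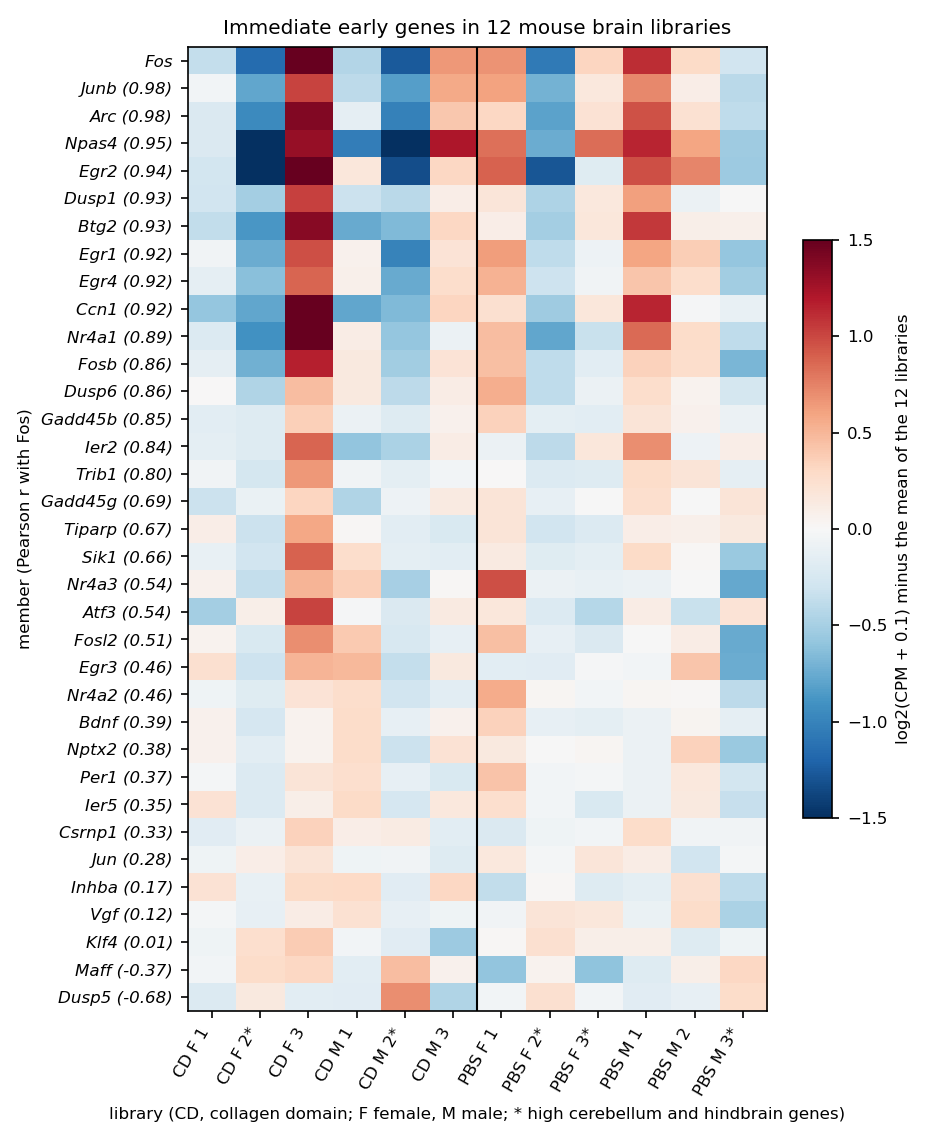
Level of the 35 members (rows, by falling Pearson r with Fos, given in brackets) in the 12 libraries (columns, collagen domain left of the line and PBS right of it), as log2(CPM + 0.1) minus the member's mean over the libraries, with colours cut off at 1.5 either way. Collagen domain female 3 is red in most rows, while members with a high r are mostly blue in the starred libraries with high cerebellum and hindbrain genes apart from PBS female 3, where Fos stood at 26.9 CPM.

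Treatment as labelled showed no called difference in these genes. Reads of C1qtnf3 went against the treatment label in 4 of the 12 libraries. The comparison is therefore between labels, and says less about libraries with and without reads of the construct. Of the 35 members, 0 passed at an adjusted p under 0.05 and 0 had an unadjusted p under 0.05 in edgeR's quasi-likelihood test of collagen domain against PBS in both sexes. Over all 19145 genes tested, 0% passed the adjusted threshold and 1.85% had an unadjusted p under 0.05. DESeq2 and limma-voom also gave 0 members at either threshold. Log2 fold changes ran between -0.35 for Npas4 and 0.33 for Maff, with a median of -0.02, against 0 over all genes. They were below 0 for 19 members and above 0 for 16, and 49.9% of all genes were below 0. For no member did the 6 collagen domain libraries lie apart from the 6 PBS libraries, which they did for 0.0679% of all genes. In bulk tissue, fewer cells with a gene on and less of its RNA per cell cannot be told apart.

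Among the 7 AP-1 and related bZIP factors, 3 had fold changes below 0 and 4 above, with none called. Fos, the founding partner in AP-1 dimers, stood at 16.8, 9.65 and 61.7 CPM in collagen domain females 1 to 3 and at 15.8, 8.9 and 33.9 CPM in collagen domain males. In PBS females 1 to 3 it stood at 34.3, 10.3 and 26.9 CPM, and in PBS males at 46.7, 26.4 and 17.6 CPM. The highest value and the lowest both lay in collagen domain libraries, and the groups overlapped throughout. The log2 fold change of Fos was -0.16 (SE 0.519).

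Junb, a Jun family partner of Fos, was lowest at 22.1, median at 34.1 and highest at 79.8 CPM in collagen domain libraries, against 24.1, 43.0 and 64.9 CPM in PBS libraries, with a log2 fold change of -0.09 (SE 0.360). It followed the order of Fos. Maff, a small Maf protein that dimerises through its leucine zipper and lacks an activation domain, was lowest at 0.934, median at 1.20 and highest at 1.49 CPM in collagen domain libraries, against 0.660, 1 and 1.33 CPM in PBS libraries. Its log2 fold change of 0.33 (SE 0.192) was the highest of the 35, with an unadjusted p of 0.114. Atf3, a stress-induced member of the ATF/CREB family, ranged over 0.742 to 2.31 CPM in collagen domain libraries and 0.793 to 1.28 CPM in PBS libraries (log2 fold change 0.23, SE 0.256). Fosb and Fosl2, further Fos family members, had log2 fold changes of 0.12 and 0.18, and Jun, the main partner of Fos in AP-1, had -0.03. Junb and Jun have genes annotated across them on the other strand, Prdx2 and Junos, and the libraries do not keep strand. Reads from a stretch shared by both genes cannot be separated, and how much of each gene is shared was not measured. The same holds for Dusp1, which Ergic1 lies across, and for Inhba, Bdnf, Tiparp, Atf3, Csrnp1 and Dusp5, each with an opposite-strand annotation of its own.

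The 5 zinc finger factors likewise gave no call, with 3 below 0 and 2 above. Egr1, which binds GC-rich promoter sites and is a standard marker of recent activity in cortex, was lowest at 64.8, median at 130 and highest at 253 CPM in collagen domain libraries, against 87.0, 146 and 200 CPM in PBS libraries. The collagen domain range enclosed that of PBS, and the log2 fold change was -0.13 (SE 0.332). Egr3 ranged over 21.7 to 39.6 CPM in collagen domain libraries and 16.5 to 37.1 CPM in PBS libraries (log2 fold change 0.24, SE 0.199). Egr2 and Egr4, close relatives of Egr1, had log2 fold changes of 0.07 (SE 0.641) and -0.06 (SE 0.278). Klf4, a Krüppel-like factor best known from stem cells, ranged over 2.93 to 5.66 CPM in collagen domain libraries and 3.77 to 5.12 CPM in PBS libraries (log2 fold change -0.05, SE 0.116).

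The other 6 inducible transcription regulators split evenly, with 3 below 0 and 3 above. Npas4, a neuron-restricted factor induced by calcium entry that shapes inhibitory synapses, stood at 10.6, 4.02 and 30.5 CPM in collagen domain females 1 to 3 and at 5.94, 3.49 and 28.6 CPM in collagen domain males. In PBS females it stood at 21.9, 7.29 and 22 CPM, and in PBS males at 27.3, 18.6 and 8.48 CPM. Collagen domain libraries thus held both the highest values and the lowest, and the log2 fold change of -0.35 carried an SE of 0.594.

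Nr4a1, an orphan nuclear receptor, was lowest at 21.9, median at 37.1 and highest at 121 CPM in collagen domain libraries, against 23.8, 41.2 and 74.3 CPM in PBS libraries, with a log2 fold change of 0.08 (SE 0.436). Its high end came from collagen domain female 3 alone, since the next collagen domain library stood at 44.5 CPM. Nr4a2, a receptor of the same family needed by midbrain dopamine neurons, ranged over 23.4 to 34.4 CPM in collagen domain libraries and 21.8 to 42.1 CPM in PBS libraries (log2 fold change -0.08, SE 0.137). Nr4a3, the family's remaining member, had a log2 fold change of 0.01. Csrnp1, a nuclear protein rich in cysteine and serine, had 0.06, and its annotation overlaps the microglial gene Cx3cr1. Per1, a repressor of the circadian clock that is also induced by light and cyclic AMP, had -0.05.

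Of the 11 feedback and stress genes, 7 had fold changes below 0 and 4 above. Btg2, an antiproliferative factor that promotes decay of mRNA, was lowest at 10.2, median at 13.2 and highest at 48.6 CPM in collagen domain libraries, against 13.1, 20.1 and 39.1 CPM in PBS libraries. Its groups overlapped, with a log2 fold change of -0.17 (SE 0.421). Gadd45g, a growth arrest and DNA damage protein, ranged over 8.13 to 14 CPM in collagen domain libraries and 10.3 to 13.3 CPM in PBS libraries (log2 fold change -0.15, SE 0.127). Sik1, a kinase that holds CRTC coactivators of CREB in the cytoplasm, ranged over 9.48 to 21.5 CPM in collagen domain libraries and 7.82 to 14.2 CPM in PBS libraries (log2 fold change 0.18, SE 0.206).

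The remaining 8 of this group lay within 0.11 of 0. The MAP kinase phosphatases Dusp1, Dusp5 and Dusp6 had log2 fold changes of -0.07, -0.01 and -0.04. Trib1, a pseudokinase that steers proteins to degradation, had 0.05, and Tiparp, which attaches ADP-ribose to proteins, had 0.01. Ier2 and Ier5, nuclear immediate early response proteins, had -0.11 and 0.10, and Gadd45b had -0.07.

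The 6 synaptic and secreted effectors gave 3 below 0 and 3 above. Arc, a capsid-like protein that removes AMPA receptors from synapses, stood at 79.8, 48.1 and 243 CPM in collagen domain females 1 to 3 and at 84.7, 46.1 and 123 CPM in collagen domain males. In PBS females it stood at 115, 53.2 and 108 CPM, and in PBS males at 181, 109 and 71.4 CPM. As for Fos, the extremes of both kinds were collagen domain libraries, and the log2 fold change was -0.04 (SE 0.433).

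Inhba, which encodes the subunit of activin A, had the smallest p of the 35. It was lowest at 2.77, median at 3.75 and highest at 3.92 CPM in collagen domain libraries, against 2.38, 2.76 and 3.72 CPM in PBS libraries. Its log2 fold change was 0.29 (SE 0.138, unadjusted p = 0.0593), with overlapping groups. Bdnf, the neurotrophin that strengthens synapses through TrkB, was lowest at 19.1, median at 23.7 and highest at 27.5 CPM in collagen domain libraries, against 20.5, 21.1 and 28.8 CPM in PBS libraries (log2 fold change 0.03, SE 0.105). Nptx2, a pentraxin that clusters AMPA receptors, had a log2 fold change of 0.03, Vgf, a secreted neuropeptide precursor, had -0.02, and Ccn1, a matrix-associated signalling protein, had -0.10 (SE 0.477).

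**Figure D2:**
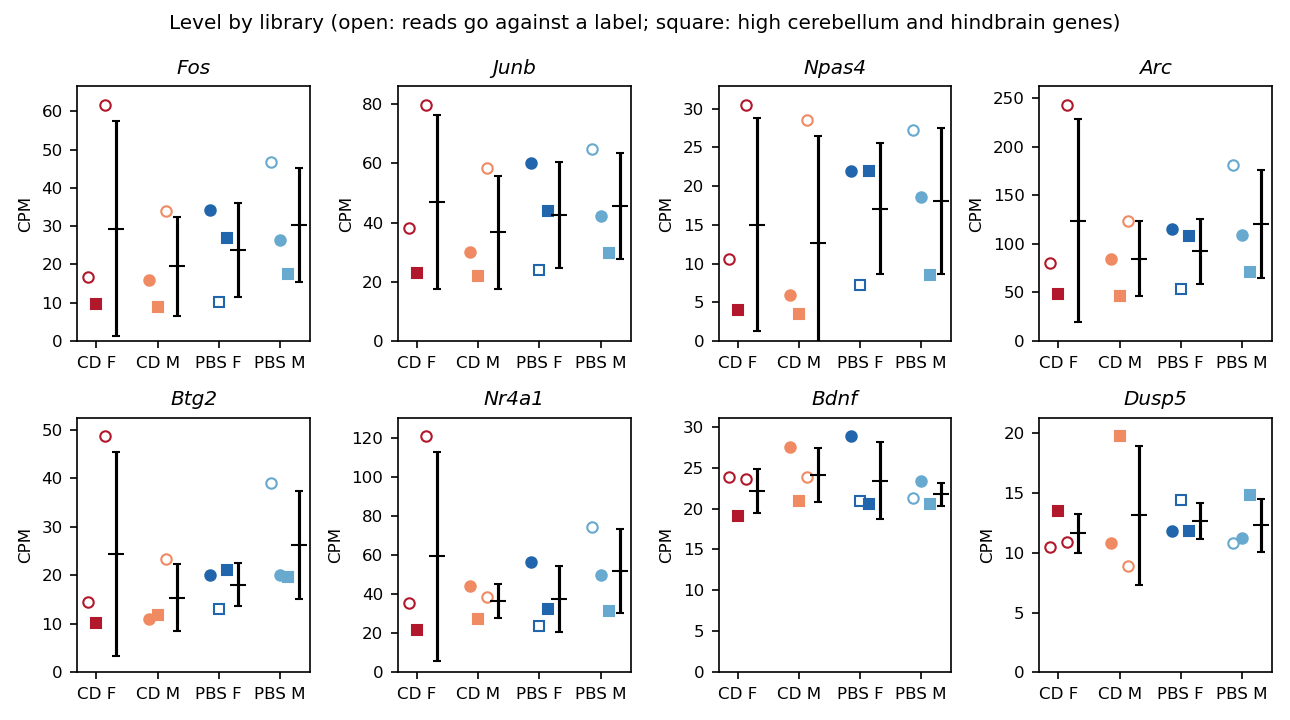
CPM (vertical axes, from 0) of 8 members in the 4 groups (CD, collagen domain; F, female; M, male), with a point per library and, beside each group, its mean and SD (n = 3; the bar of Npas4 in collagen domain males is cut off at 0). Open points, whose reads went against a label, hold the highest value of Fos, Junb, Npas4, Arc, Btg2 and Nr4a1, and squares mark high cerebellum and hindbrain genes.

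Single libraries set the sign of many members. Without collagen domain female 3, 27 of 35 members had a log2 fold change below 0 (48.7% of all genes), with a median of -0.12. Without PBS male 1 it was 8 of 35 (49.8% of all genes), with a median of 0.07. Reads of both libraries went against their treatment labels.

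With the 5 libraries that went against a label left out, 3 collagen domain and 4 PBS libraries remained and 0 of 35 members passed at an adjusted p under 0.05 (0.0104% of all genes). An unadjusted p under 0.05 was reached by 8 of 35 members, against 5.7% of all genes, all 8 with lower values in collagen domain libraries. They were Fos, Junb, Npas4, Ier2, Dusp1, Btg2, Arc and Ccn1. Log2 fold changes were below 0 for 25 of 35 members, against 47.3% of all genes. Those of the 8 other than Fos had a Pearson r of 0.84 to 0.98 with Fos over the 12 libraries. Members that move together are not independent, so these counts are not numbers of separate results. With the 4 libraries against their treatment label left out in place of the 5, an unadjusted p under 0.05 was reached by 1 member, Tiparp (log2 fold change -0.27, SE 0.114), against 3.28% of all genes. Without the 5 libraries with high cerebellum and hindbrain genes it was reached by 1 other member, Inhba (0.41, SE 0.147), against 2.8% of all genes.

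Btg2 stood at 10.2, 11.1 and 11.8 CPM in the 3 collagen domain libraries that remained, against 20.1, 21.1, 20 and 19.7 CPM in the 4 PBS libraries. Npas4 stood at 4.02, 5.94 and 3.49 CPM there, against 21.9, 22, 18.6 and 8.48 CPM in PBS. Fos stood at 9.65, 15.8 and 8.9 CPM there, against 34.3, 26.9, 26.4 and 17.6 CPM in PBS. The remaining groups did not overlap for 7 of 35 members, these 3 with Ier2, Dusp1, Ccn1 and Gadd45g, all lower in collagen domain libraries. Of all genes, 2.65% lay wholly lower and 3.66% wholly higher in these collagen domain libraries. The libraries left out held some of the highest levels, with Fos at 61.7 CPM in collagen domain female 3, 33.9 CPM in collagen domain male 3 and 46.7 CPM in PBS male 1. Collagen domain male 3 kept to its treatment label and was left out for its sex label alone. It held 23.3 CPM of Btg2 and 28.6 CPM of Npas4, and with it the groups overlap for each of the 7 members. By reads of C1qtnf3, PBS male 1 held 2675 and collagen domain female 3 held 8. Of the remaining libraries, 2 of 3 collagen domain and 2 of 4 PBS libraries had high cerebellum and hindbrain genes, and the part of these in the difference was not tested. Btg2 had the smallest adjusted p of the members in this fit, 0.181 in edgeR's quasi-likelihood test with Benjamini-Hochberg adjustment (log2 fold change -0.88, SE 0.0974), against 0.773 to 1 over its other alternatives.

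**Figure D3:**
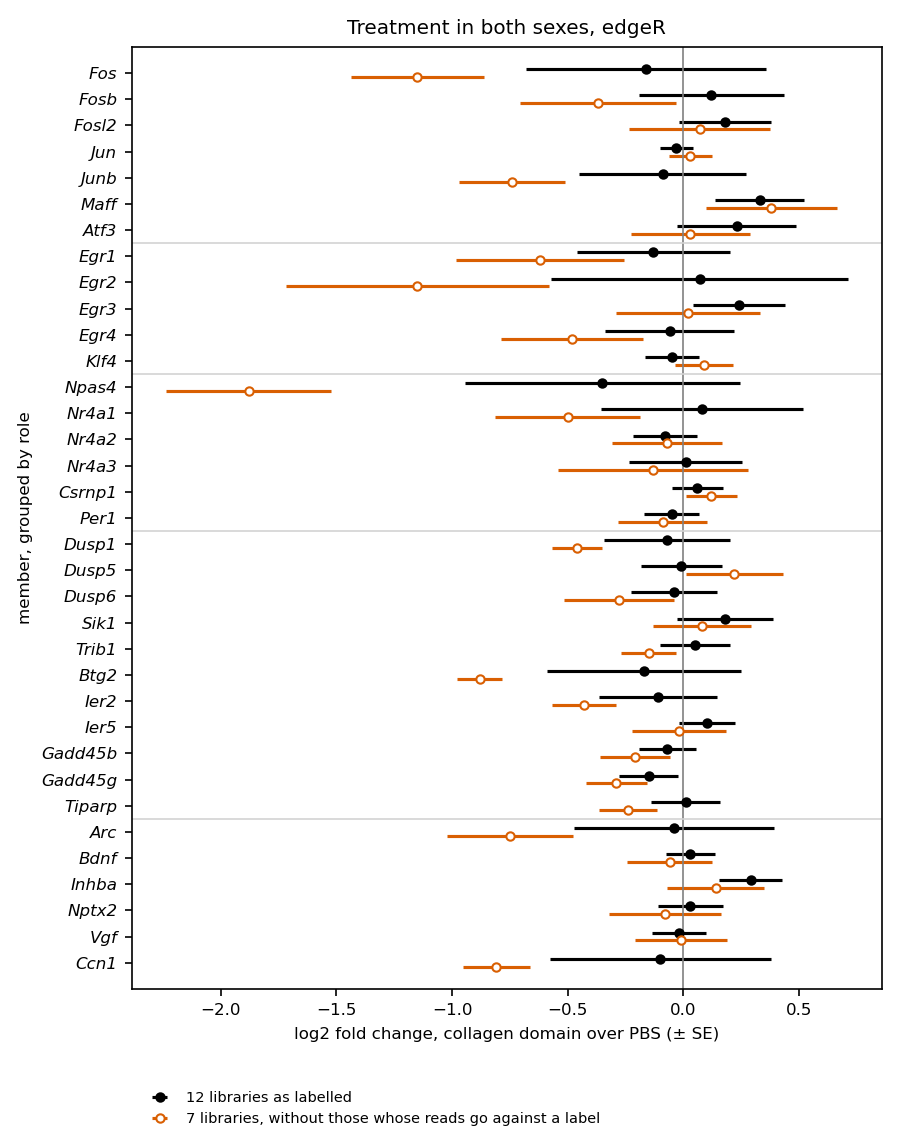
Log2 fold change of collagen domain over PBS in both sexes (horizontal axis, points with SE) for the 35 members, grouped by role (vertical axis), from all 12 libraries (black) and from the 7 left without those that went against a label (orange). Black points lie between -0.35 and 0.33, and the orange point of Npas4 lies at -1.88.

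Within the sexes the fold changes leaned in opposite directions without a call. In females, 23 of 35 members had a log2 fold change above 0, with a median of 0.15 (52.4% of all genes were below 0), and in males 13 of 35, with a median of -0.07 (47.7% of all genes below 0). Here 0 members passed the adjusted threshold in edgeR, DESeq2 or limma-voom in either sex, against 0% of all genes in edgeR. Unadjusted p was under 0.05 for 1 member in females, Maff (log2 fold change 0.58, SE 0.264, unadjusted p = 0.0487), against 1.46% of all genes. It was 0 members in males, against 1.7% of all genes. Maff averaged 1.21 ± 0.169 CPM in collagen domain females and 0.811 ± 0.254 CPM in PBS females (SD, n = 3 each).

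The difference between the sexes in the effect of treatment was tested as an interaction, and 0 of 35 members were called, nor any of all genes (0%). Unadjusted p was under 0.05 for 0 members with edgeR and limma-voom and for 1 with DESeq2, against 1.37% of all genes in edgeR. The interaction was above 0 for 26 of 35 members, with a median of 0.28, while 50.6% of all genes were below 0. Collagen domain female 3 and PBS male 1 held the highest Fos of their groups. Fos averaged 29.4 ± 28.2 CPM in collagen domain females and 23.9 ± 12.3 CPM in PBS females, against 19.5 ± 12.9 CPM in collagen domain males and 30.2 ± 15 CPM in PBS males (SD, n = 3 each). The direction in females and that of the interaction turned without collagen domain female 3 alone. In females 31 of 35 members were then below 0, with a median of -0.22 (51% of all genes), and the interaction was below 0 for 24 of 35, with a median of -0.12 (50.4% of all genes). Without all 4 libraries that went against their treatment label, a single collagen domain female library was left, so no direction is given for females.

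Between the sexes as labelled, 0 of 35 members were called by edgeR, DESeq2 or limma-voom (0% of all genes in edgeR, and 8 genes in DESeq2), and 2 had an unadjusted p under 0.05 with each of the 3 tools (1.97% of all genes in edgeR). With edgeR these were Klf4, with a female minus male log2 difference of 0.31 (SE 0.116, unadjusted p = 0.0204), and Jun, with 0.18 (SE 0.0732, unadjusted p = 0.0317). Klf4 averaged 4.97 ± 0.780 CPM in collagen domain females and 3.65 ± 0.647 CPM in collagen domain males, and 4.70 ± 0.387 CPM in PBS females and 4.17 ± 0.415 CPM in PBS males (SD, n = 3 each). Of the 35 members, 7 were lower in females (49.4% of all genes), and without collagen domain female 3 it was 26 (50.2% of all genes). The sex label went against the reads in 4 of these 12 libraries.

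The members' levels moved together from library to library. Over the 12 libraries, log2 CPM of 15 of the 34 other members had a Pearson r of 0.7 or more with Fos (44.1%), against 1.72% of all genes tested, and the median r was 0.66, against 0 over all genes. After Benjamini-Hochberg adjustment over the 34 relations, 19 passed at 0.05 by permutation of Pearson r (100000 resamples, two-sided) and 16 by Spearman rho, 1 of the 19, Dusp5, with a negative r. With collagen domain female 3 and collagen domain male 2 left out, the libraries farthest from the median of Fos, 15 members still had an r of 0.7 or more. Points share their library and its composition, so these values describe which members were high in the same libraries.

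Junb had r = 0.98 with Fos (rho = 0.98), and its adjusted permutation p of 8.5e-05 rests on 1e-05, the smallest that the resamples can give. Arc also had r = 0.98, Npas4 0.95 and Egr2 0.94. Dusp1 and Btg2 had 0.93, and Egr1, Egr4 and Ccn1 0.92. They were followed by Nr4a1 at 0.89, Fosb and Dusp6 at 0.86, Gadd45b at 0.85, Ier2 at 0.84 and Trib1 at 0.80. These 15 include members of all 5 roles, from transcription factors to the synaptic Arc and the secreted Ccn1.

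Other members stood apart from Fos. Jun, the partner of Fos in AP-1, had r = 0.28 (adjusted permutation p = 0.412), Bdnf 0.39 (0.29), Vgf 0.12 (0.734) and Klf4 0.01 (0.967), each adjusted over the 34 relations. Maff had -0.37 (adjusted permutation p = 0.29). Dusp5, an ERK phosphatase, had r = -0.68 (adjusted permutation p = 0.0256) but rho = -0.49 (adjusted permutation p = 0.162). Its highest levels were 19.7 CPM in collagen domain male 2 and 14.8 CPM in PBS male 3, libraries with high cerebellum and hindbrain genes.

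**Figure D4:**
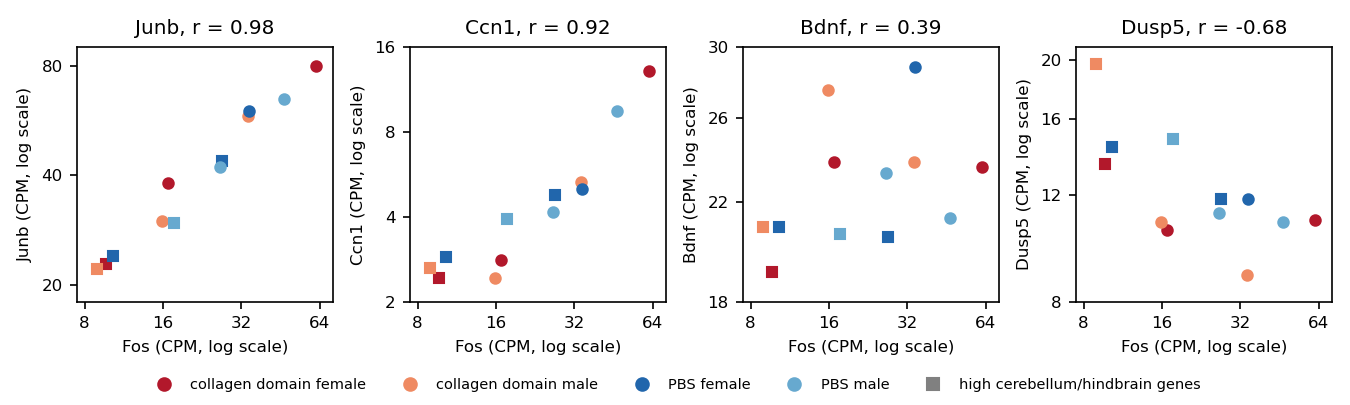
CPM of Junb, Ccn1, Bdnf and Dusp5 (vertical axes, log scales) against CPM of Fos (horizontal axes, log scale) in 12 libraries, coloured by group, with squares for the 5 libraries with high cerebellum and hindbrain genes. Junb and Ccn1 climb with Fos over its range of 8.9 to 61.7 CPM, Bdnf shows no clear order, and the highest Dusp5 values are squares.

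The relation held within the 7 libraries with low cerebellum and hindbrain genes. There 16 of 34 members had an r of 0.7 or more with Fos (47.1%), against 3.2% of all genes, and 14 passed at an adjusted p under 0.05 in an exact permutation test of Pearson r. Ccn1 had r = 0.98, Junb 0.97 and Gadd45g 0.96, while Dusp5 had 0.04. The other 5 libraries were too few for a value of their own. With the 4 group means removed, 17 members had an r of 0.7 or more (3.26% of all genes), among them Nr4a3 at 0.71 and Sik1 at 0.74. Without the 5 libraries that went against a label there were 13 (5.68% of all genes), with Ier2 and Trib1 both at 0.58.

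A further set of members went with Bdnf. Bdnf was chosen as the gene to compare with after the values were seen, so this is a description of these libraries. Over 12 libraries, 6 of 34 members had a Pearson r of 0.7 or more with it, against 3.8% of all genes: Ier5 (0.88), Nr4a3 (0.84), Per1 (0.80), Nr4a2 (0.79), Dusp6 (0.77) and Fosl2 (0.72). All 6 passed at 0.05 by permutation of r after adjustment over 34 relations, with adjusted p between 0.0051 and 0.0479. By Spearman rho, Ier5, Nr4a3, Dusp6 and Fosl2 of these passed, and Per1 and Nr4a2 had an adjusted permutation p of 0.0777. Leaving out PBS female 1 and collagen domain male 1, the libraries farthest from the median of Bdnf, Ier5 kept 0.88 and Dusp6 had 0.73, while Nr4a3 had 0.69, Fosl2 0.61, Per1 0.50 and Nr4a2 0.45, so that these 4 were under 0.7 without those libraries. In the 7 libraries with low cerebellum and hindbrain genes 4 members had an r of 0.7 or more (3.99% of all genes) and 0 passed the exact permutation test after adjustment. Of the 6, only Dusp6 was also among the 15 with an r of 0.7 or more with Fos.

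**Figure D5:**
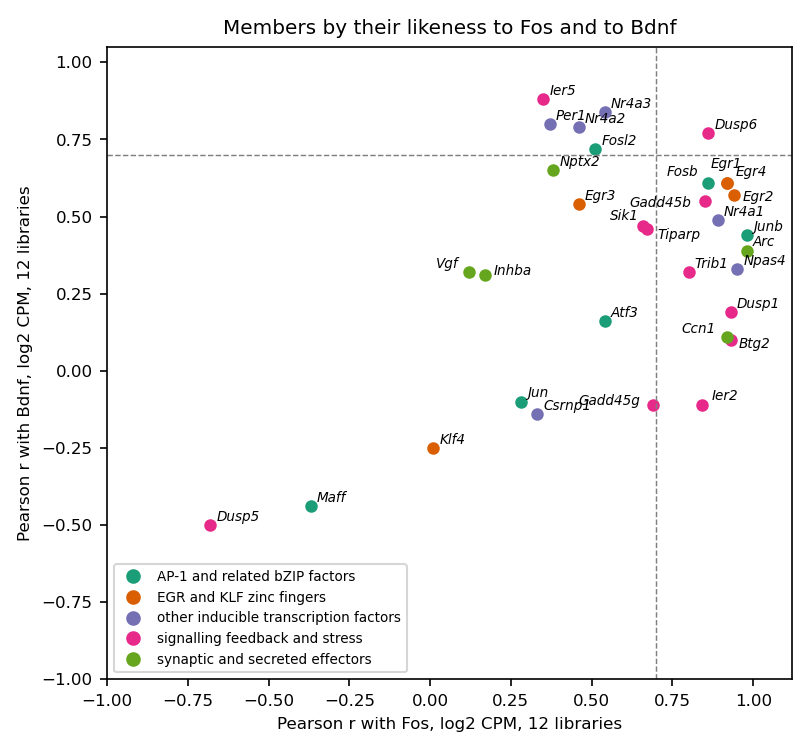
Pearson r of log2 CPM with Fos (horizontal axis) and with Bdnf (vertical axis) over 12 libraries for the 33 members other than Fos and Bdnf, coloured by role. Dashed lines mark 0.7, and Dusp6 at 0.86 and 0.77 is the point past both.

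Several members were lower where cerebellum and hindbrain genes were high. In all 5 such libraries, 8 of 35 members stood below every one of the other 7 libraries, against 2.79% of all genes: Fosb, Fosl2, Egr1, Nr4a1, Nr4a3, Dusp6, Bdnf and Trib1. Egr1 stood at 64.8 to 123 CPM in the 5, against 125 to 253 CPM in the 7. Nr4a1 stood at 21.9 to 32.6 CPM in the 5, against 35.5 to 121 CPM in the 7, and Bdnf at 19.1 to 20.9 CPM in the 5, against 21.3 to 28.8 CPM in the 7. Dusp5 was the single member above all 7 in each of the 5 (5.06% of all genes). The nearest libraries of the 5 and the 7 had the same rounded CPM for Fosl2 (20.9), Nr4a3 (21.8) and Dusp5 (11.8). Fos itself overlapped, at 8.9 to 26.9 CPM in the 5 and 15.8 to 61.7 CPM in the 7.

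Other lists of markers also differed over this split. The 8 forebrain markers summed to 204 to 241 CPM in the 5 libraries and 249 to 308 CPM in the 7, and the 5 astrocyte markers to 1220 to 1520 CPM in the 5 and 988 to 1110 CPM in the 7. The 5 oligodendrocyte markers summed to 5890 to 6750 CPM in the 5 and 4690 to 5390 CPM in the 7, and the 6 striatum markers to 309 to 411 CPM in the 5 and 431 to 532 CPM in the 7. A list of 40 further activity-induced genes also lay apart, at 2940 to 3110 CPM in the 5 and 3140 to 3360 CPM in the 7. The sums of all other lists overlapped, apart from the cerebellum and hindbrain list itself. The 5 neuron markers overlapped, at 4770 to 5240 CPM in the 5 and 4960 to 5650 CPM in the 7. The part of tissue composition in the members' levels was not tested. With the mean of the cerebellum and hindbrain list as a covariate, treatment again called 0 members, and 2 had an unadjusted p under 0.05 (5.37% of all genes), namely Egr1 (log2 fold change -0.42, SE 0.162) and Maff (0.40, SE 0.179).

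Genes that carry the signal to the nucleus gave no call either. Of 32 such genes, including channels, kinases, CREB, SRF and MEF2 factors, 0 were called for treatment and 0 had an unadjusted p under 0.05, with 12 fold changes below 0, 20 above and a median of 0.02. The smallest p values belonged to Crtc2 (log2 fold change 0.11, SE 0.0723), Camkk2 (0.13, SE 0.0867) and Srf (0.07, SE 0.0634). None of the 32 had an r of 0.7 or more with Fos, and Crtc2, Camk4, Rps6ka1 and Rps6ka5, named after their values were seen, had -0.7 or less. So had 3 of 5 astrocyte markers and 4 of 15 cerebellum and hindbrain markers, and the share over all genes was not counted.

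The 40 further activity-induced genes gave 0 calls and 0 unadjusted p under 0.05, with 20 fold changes below 0 and 20 above. Pcsk1, a prohormone convertase (log2 fold change 0.13, SE 0.0645), Scg2, a granin of secretory vesicles (0.12, SE 0.0608), and Midn (0.13, SE 0.0902) had the smallest p. Of the 40, 8 had an r of 0.7 or more with Fos, against 1.72% of all genes, and 1 had -0.7 or less. Arl4d at 0.93, Ptgs2, the inducible cyclooxygenase, at 0.83 and Rasl11a at 0.80 led the 8. Ptgs2 and Rasl11a were named after their values were seen.

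Glucocorticoid-responsive genes gave 0 calls among 14, with 12 fold changes below 0, a median of -0.15 and 4 unadjusted p under 0.05 (1.85% of all genes). The smallest belonged to Hif3a (log2 fold change -0.54, SE 0.157), the lipid droplet gene Plin4 (-0.72, SE 0.243) and Sult1a1 (-0.48, SE 0.170). The list, drawn up with earlier results of these data known, summed to 734 CPM in PBS male 3 and 622 CPM in PBS female 1. Its sums were 462 to 529 CPM in the other PBS libraries and 427 to 537 CPM in collagen domain libraries. None of the 14 had an r of 0.7 or more with Fos, and their median r was 0.05.

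Outside the members, the 10 genes whose log2 CPM was most like that of Fos over the 12 libraries were Ovca2 (r = 0.97), 1700016P03Rik (0.94), Arl4d (0.93), B130046B21Rik (0.92), ENSMUSG00000029333 (0.91, an ID with no name in the tables used), Rsrp1 (0.89), Myo3b (0.88), Samd3, Mex3b and Shisal2b (0.87 each). They were ranked among all 19145 genes tested, so these values are a description. Ovca2 and 1700016P03Rik are annotated across each other on opposite strands and B130046B21Rik lies across Ddn. Without strand, reads from the stretches they share cannot be told apart, and the length of these stretches was not measured. The 1700016P03Rik annotation spans Mir132 and Mir212, whose mature RNAs were not measured here. Both are shown, from RefSeq on GRCm38.p6, because they share the seed, bases 2 to 8, in capitals.

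mmu-miR-132-3p, chr11:75173723-75173744, plus strand: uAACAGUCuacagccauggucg

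mmu-miR-212-3p, chr11:75173443-75173464, plus strand: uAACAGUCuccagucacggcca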

How the data were processed

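The authors deposited a single table of raw counts, whole numbers of reads for each Ensembl ID. Per the labels' protocols, RNA was purified with TRIzol and an RNeasy column, made into TruSeq v2 libraries, which do not keep strand, and read in pairs on a NextSeq. The submitters' processing notes name STAR, DESeq2 and GRCm39, without roles or versions. How overlapping genes and paralogs were counted is not given in the sources used here.

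Symbols came from GENCODE M21, in which 42462 of 43629 IDs were found. Libraries of the same group differed by 11.9 to 102 chi-square per degree of freedom over 12 pairs, so none was treated as a repeat. The filterByExpr step, given the 4 groups, left 19145 genes, which were scaled by TMM. The test was edgeR's quasi-likelihood F-test (version 4.0.16, R 4.3.3), robust and two-sided, with Benjamini-Hochberg adjustment over all genes tested and a threshold of 0.05. Each SE was worked back from this test, as the size of the log2 fold change divided by the square root of F. A fit of sex and treatment gave the results for both sexes and for female against male, and a fit of the 4 groups gave the others, all on 12 libraries. The alternatives were DESeq2 1.42.0, limma-voom (limma 3.58.1), size factors by relative log expression, no filter on low counts, at least 1 CPM in 6 libraries, a replicate block, a covariate of cerebellum and hindbrain genes, and fits without single or several libraries. The fits were tested on simulated data. CPM uses TMM-scaled library sizes, and RPKM divides it by the union of annotated exons. Correlations used log2 CPM with a prior count of 2. A threshold of 1000 C1qtnf3 reads decided which libraries went against their treatment label.

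The members, the lists and the libraries left out were chosen with earlier results of these data known. By rule, values by library or their lowest, median and highest are given for Fos, Junb, Egr1, Npas4, Arc, Nr4a1, Btg2 and Bdnf, and ranges for the 2 members of smallest p for treatment in each role. The rule also names the 3 genes of smallest p in each other list and the 10 genes most like Fos. The comparison with Bdnf was chosen after its values were seen. Coordinates are those of the RefSeq sequences on GRCm38.p6. The figures used matplotlib 3.10.9 under Python 3.11.15.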

Additional observations from a re-analysis of the deposited data

Results flagged for a closer look

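In 16 of 70 sets of 6 libraries (35 members, each within collagen domain and within PBS), the highest library stood apart from the rest by Dixon's gap test at its 95% limit. Chance alone would mark about 1 set in 20 if values were normally distributed. The test used CPM without taking logs, so that rate may not hold here, and members that move together are not independent. It was not run on other genes, so these counts are not shown to be particular to the members.

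Collagen domain female 3 stood apart from the other 5 collagen domain libraries for 10 members. It had 18.3 CPM of Fosb, 14.4 CPM of Egr2, 121 CPM of Nr4a1, 11.7 CPM of Ier2, 53.9 CPM of Dusp1, 48.6 CPM of Btg2, 13.2 CPM of Ccn1, 21.5 CPM of Sik1, 21 CPM of Trib1 and 2.31 CPM of Atf3. These cover AP-1, EGR and nuclear receptor factors as well as the phosphatase Dusp1 and the secreted Ccn1. The library held 8 reads of C1qtnf3, against 2612 to 4966 in the collagen domain libraries that kept to their treatment label.

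PBS male 1 stood apart from the other PBS libraries for Btg2 at 39.1 CPM, Ccn1 at 9.45 CPM and Csrnp1 at 8.13 CPM. It went against both its labels. PBS female 1, which went against neither, stood apart for Nr4a2 at 42.1 CPM, Nr4a3 at 45.4 CPM and Bdnf at 28.8 CPM, genes that also had their highest level of all 12 libraries there.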

How the results depend on the processing

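With every alternative run, 0 of 35 members passed at an adjusted p under 0.05 for treatment in both sexes. Counts over all genes were 0 in each comparison and moved in some settings. Without the 4 libraries against their treatment label they were 2 in both sexes, 1 in females, 1 in males and 1 between the sexes, and without all 5 they were 2, 1, 1 and 7. Both settings left 1 collagen domain female library, assumed to vary like the other groups. DESeq2 called 3 genes in males, 1 for the interaction and 8 between the sexes, and leaving out the libraries with high cerebellum and hindbrain genes called 4 between the sexes. Leaving out single libraries gave 0 to 1 in males (1 without collagen domain female 3) and 0 to 5 between the sexes (5 without PBS male 3). The cause was not tested in any of these settings.

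The number of members with an r of 0.7 or more with Fos, 15, was between 13 and 19 in all settings, and between 15 and 17 when single libraries were left out.

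DESeq2, relative log expression factors and both other filters turned no sign. With limma-voom the sign of the log2 fold change turned to -0.22 for Egr2 and -0.04 for Nr4a1. With a replicate block the sign of the log2 fold change turned to -0.22 for Egr2 and -0.01 for Nr4a1. With the covariate of cerebellum and hindbrain genes the sign of the log2 fold change turned to -0.12 for Fosb, -0.51 for Egr2, -0.21 for Nr4a1, -0.14 for Nr4a3, 0.07 for Dusp5, -0.04 for Bdnf, -0.03 for Trib1, -0.06 for Nptx2 and -0.07 for Tiparp. Without the 4 libraries against their treatment label the sign of the log2 fold change turned to -0.24 for Fosb, 0.01 for Jun, -0.89 for Egr2, -0.45 for Nr4a1, -0.08 for Nr4a3, 0.08 for Dusp5, -0.04 for Bdnf, -0.13 for Trib1, -0.02 for Nptx2 and -0.27 for Tiparp. Without the 5 libraries against a label the sign of the log2 fold change turned to -0.37 for Fosb, 0.03 for Jun, -1.15 for Egr2, -0.50 for Nr4a1, -0.13 for Nr4a3, -0.02 for Ier5, 0.22 for Dusp5, -0.06 for Bdnf, -0.15 for Trib1, -0.08 for Nptx2, -0.24 for Tiparp and 0.09 for Klf4. Without the libraries with high cerebellum and hindbrain genes the sign of the log2 fold change turned to -0.20 for Egr2, -0.18 for Nr4a1, -0.13 for Nr4a3, -0.04 for Trib1, 0.03 for Vgf and -0.05 for Tiparp. Of all values with a turned sign, the smallest unadjusted p was 0.045, for Tiparp without the 4 libraries. Leaving out single libraries turned the sign for 28 members, over these ranges of log2 fold change. They were Fos -0.73 to 0.09, Fosb -0.22 to 0.26, Jun -0.07 to 0.01, Junb -0.39 to 0.09, Egr1 -0.41 to 0.03, Egr2 -0.74 to 0.32, Egr4 -0.31 to 0.07, Arc -0.51 to 0.19, Nr4a1 -0.45 to 0.30 and Nr4a2 -0.17 to 0.03. They were also Nr4a3 -0.11 to 0.24, Ier2 -0.36 to 0.06, Dusp1 -0.40 to 0.08, Dusp5 -0.21 to 0.07, Dusp6 -0.16 to 0.09, Btg2 -0.67 to 0.07, Bdnf -0.03 to 0.13, Per1 -0.13 to 0.04, Ccn1 -0.73 to 0.20 and Sik1 -0.04 to 0.29. The rest were Gadd45b -0.17 to 0.01, Trib1 -0.12 to 0.11, Atf3 -0.05 to 0.35, Nptx2 -0.07 to 0.13, Vgf -0.10 to 0.06, Tiparp -0.13 to 0.08, Csrnp1 -0.03 to 0.12 and Klf4 -0.11 to 0.02. The other 7 members, among them Npas4, Maff and Inhba, kept theirs.

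Replicate numbers are shared across groups, but they were not shown to pair libraries. Over 18 same-numbered pairs the correlation of deviations from group means ran between -0.38 and 0.57, with 7 above 0.1, and 6 of 12 libraries correlated best with their own number. With a replicate block 0 genes were called in every comparison, and 19 members had an r of 0.7 or more with Fos.

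Depth limits the lowest members most, Maff and Atf3, with as few as 32 reads in a library. The SE of the log2 fold change of Fos was 0.519 with 6 libraries a treatment. That the libraries' labels and reads disagree limits every comparison by treatment or sex.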
